A study of Mus musculus with 21 samples.

Results

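The genes described here encode the core subunits of NuRD, the nucleosome remodelling and deacetylase complex. They are Hdac1, Hdac2, Chd3, Chd4, Mbd2, Mbd3, Mta1, Mta2, Rbbp4 and Rbbp7, 10 of the 20949 curated protein-coding mouse genes considered. For each gene, every ChIP-seq peak and every accessibility region was taken whose summit lay in the gene body or within 10 kb of either end. The question was whether subunits of NuRD were found at the genes that encode NuRD. The windows of the 10 genes held 96 of the 91480 ChIP peaks of the series and 0 of its 825 accessibility regions. The members were named by their place in the complex and not by measured values, although earlier results of these data were known when they were chosen.

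NuRD joins 2 enzyme activities in 1 complex. HDAC1 and HDAC2 remove acetyl groups from histone tails, and the CHD3 or CHD4 motor moves nucleosomes with energy from ATP. MBD2 and MBD3 are alternative subunits, of which MBD2 binds methylated CpG DNA, the MTA proteins form the scaffold that holds and activates the deacetylases, and RBBP4 and RBBP7 are paired WD-repeat chaperones that contact histones. In the embryonic brain the complex is known for roles in the proliferation of progenitors and in the timing of neuronal differentiation.

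There were 21 samples, all of embryonic basal ganglia from the CD1 strain of mouse. ChIP-seq, which sequences the DNA pulled down with an antibody, was done on ganglionic eminences at E13.5, counted in days of embryonic development, for CHD4, HDAC1, HDAC2, MBD3, RBBP4 and RBBP7, with 1 library for each and 3 input libraries. The labels give the ChIP and input samples no genotype. By sample label, input 1 served for HDAC1 and HDAC2, input 2 for CHD4 and MBD3, and input 3 for RBBP4 and RBBP7. Lists with a common input are not independent of each other. ATAC-seq, which reads open chromatin, was done at E12.5 in Dlx1/2 knockout (KO) embryos and in wild-type (WT) embryos, with 3 embryos per genotype and cell fraction. The FTneg fraction holds cells of the subventricular and mantle zones, and the FTpos fraction holds cells of the ventricular zone. The Dlx1/2 KO lacks a pair of homeodomain transcription factors of GABAergic progenitors, and both genotypes were CD1. The tissue is a mixture of cells, so a peak that few cells carry and a peak that is weak in every cell cannot be told apart.

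For 3 of the 6 ChIP samples the sample label and the name on the attached peak list disagree. The CHD4-labelled sample has a list named HDAC1, the HDAC1-labelled sample a list named HDAC2, and the HDAC2-labelled sample a list named CHD4. The files do not settle which is correct, and the text uses the sample label with the ending "-labelled". The lists of MBD3, RBBP4 and RBBP7 match their labels. By list name, the CHD4-labelled list would go with input 1 and the HDAC2-labelled list with input 2. The lists hold between 5517 peaks (HDAC2-labelled) and 29762 peaks (RBBP4), their depth is unknown, and no list has a replicate, so no test over samples could be made. A gene without a peak in a list is one at which none was called.

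The promoters of 7 of the 10 genes were found in the RefSeq promoter table of GRCm38.p6, the assembly of mm10. Sequences of 5 are shown because they bracket the range of the ChIP results. Each is the 250 bases before the annotated start, written in the direction of the gene. Hdac2 (chr10:36974294-36974543, plus strand) and Mbd3 (chr10:80399532-80399781, minus strand) are the genes with summits of all 6 lists within 1 kb of the start. Chd4 (chr6:125095913-125096162, plus strand, before the downstream one of its 2 annotated starts) and Rbbp4 (chr4:129335371-129335620, minus strand) are the promoters whose printed bases were overlapped by peaks of the most lists, 4 in each case. Rbbp7 (chrX:162760122-162760371, plus strand) is the gene with a peak in 1 list. Capitals mark the GC box GGGCGG and the CCAAT box CCAAT, each searched on both strands.
Hdac2: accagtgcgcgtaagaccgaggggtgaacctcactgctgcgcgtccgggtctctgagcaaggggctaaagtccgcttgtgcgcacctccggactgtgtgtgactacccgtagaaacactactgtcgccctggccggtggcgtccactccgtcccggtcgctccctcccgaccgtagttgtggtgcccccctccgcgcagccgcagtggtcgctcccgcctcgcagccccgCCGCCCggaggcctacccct
Mbd3: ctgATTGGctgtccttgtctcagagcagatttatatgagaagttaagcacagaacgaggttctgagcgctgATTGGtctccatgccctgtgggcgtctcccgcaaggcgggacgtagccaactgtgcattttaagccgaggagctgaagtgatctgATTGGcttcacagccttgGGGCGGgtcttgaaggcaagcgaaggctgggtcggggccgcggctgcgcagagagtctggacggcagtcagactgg
Chd4: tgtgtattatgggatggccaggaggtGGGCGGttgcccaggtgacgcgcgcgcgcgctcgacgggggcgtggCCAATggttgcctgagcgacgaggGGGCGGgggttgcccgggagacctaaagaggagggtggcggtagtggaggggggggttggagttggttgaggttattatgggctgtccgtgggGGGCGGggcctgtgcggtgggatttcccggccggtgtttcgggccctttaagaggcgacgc
Rbbp4: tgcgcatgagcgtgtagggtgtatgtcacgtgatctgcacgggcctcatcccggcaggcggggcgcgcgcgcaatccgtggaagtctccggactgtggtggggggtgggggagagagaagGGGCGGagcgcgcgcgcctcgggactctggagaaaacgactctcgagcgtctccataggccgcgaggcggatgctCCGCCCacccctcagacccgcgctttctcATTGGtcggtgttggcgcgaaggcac
Rbbp7: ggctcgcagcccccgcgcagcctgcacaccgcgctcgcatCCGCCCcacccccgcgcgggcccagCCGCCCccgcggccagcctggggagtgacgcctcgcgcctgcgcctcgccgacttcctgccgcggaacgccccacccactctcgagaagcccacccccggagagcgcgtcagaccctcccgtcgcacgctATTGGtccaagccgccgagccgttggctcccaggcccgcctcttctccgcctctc

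In these printed bases Mbd3 held 3 CCAAT boxes and 1 GC box, Chd4 held 3 GC boxes and 1 CCAAT box, and Rbbp4 and Rbbp7 each held 2 GC boxes and 1 CCAAT box. Hdac2 held 1 GC box and no CCAAT box. Peaks of 0 lists overlapped the printed Mbd3 bases and a peak of 1 list those of Hdac2, since the regions shared by all 6 lists began downstream of both starts. Over the whole table window, which adds the 50 bases after the start, 7 of 7 members held a GC box, against 47.7% of the 20417 promoters of all genes. A CCAAT box was found in 4 of 7 members (Chd4, Mbd3, Rbbp4 and Rbbp7), against 38.4% of all promoters. The ETS motif CCGGAAG was found in 1 of 7 members (Mta2, as 2 overlapping matches on opposite strands), against 11.9%, and the NRF1 core GCGCATGC in 0 of 7, against 3.63%.

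All 7 promoters were CpG-rich, here defined as a GC content of at least 50% with a CpG frequency of at least 0.6 of that expected from the base composition. That definition held for 50.01% of the 16782 genes with a promoter in the table. The motif shares above counted members by gene but the background by promoter, and that background was not limited to CpG-rich promoters. CpG observed over expected ran from 0.822 at Mbd3 to 1.12 at Rbbp4, against a median of 0.589 over all promoters. The number of lists overlapping a member's window did not follow CpG content in order: Rbbp4 had the highest value and 4 lists, whereas Mta2 (1.06) and Mta1 (1.02) came next with 2 lists each.

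**Figure D1:**
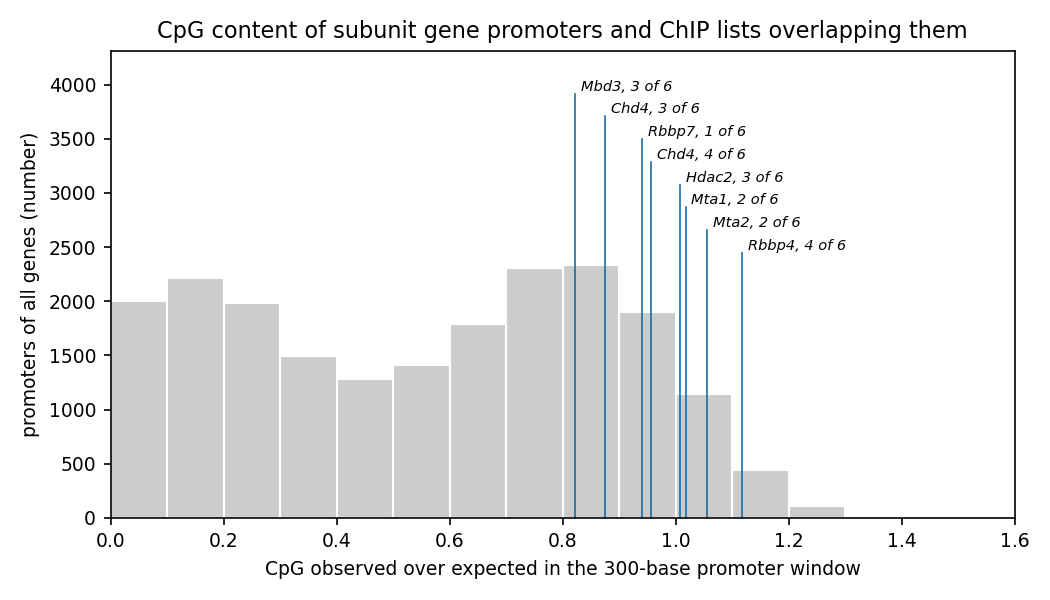
CpG observed over expected in the 300-base promoter window (x axis) for the promoters of all genes (grey bars, number of promoters) and for the 8 windows of 7 NuRD subunit genes (blue lines, each with the number of ChIP lists that overlap it; Chd4 has 2 starts). The subunit promoters lie between 0.822 and 1.12, in the upper hump of the distribution, and 1 to 4 lists overlap them.

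Every NuRD subunit gene had a peak of at least 1 list in its window, 10 of 10 genes, against 69.6% of all genes. Summits of all 6 lists lay in the windows of 4 of 10 members, Hdac2, Chd4, Mbd2 and Mbd3, against 8.91% of all genes. The members had a median of 5 lists, against 2 over all genes. Counted list by list, the CHD4-labelled list reached 10 members, against 57.2% of all genes, the HDAC1-labelled list reached 8, against 39.4%, and the HDAC2-labelled list reached 4, against 18.6%. MBD3 had a peak at 8 members, against 36.1% of all genes, RBBP4 at 9, against 62.3%, and RBBP7 at 7, against 27.9%.

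**Figure D2:**
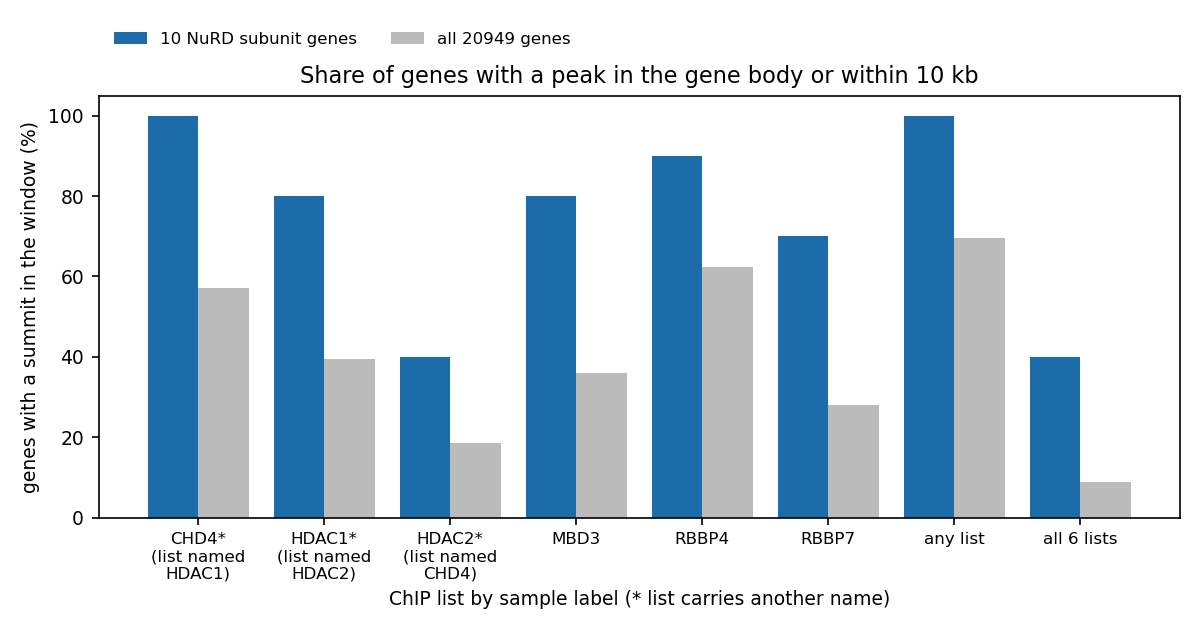
Share of genes (y axis, percent) with a ChIP summit in the gene body or within 10 kb, for the 10 NuRD subunit genes (blue) and all 20949 genes (grey), by ChIP list (x axis). The blue bar is the taller in all 6 lists, and for all 6 lists together it stands at 40% against 8.91%; the bars carry no error because no list has a replicate.

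Gene length bears on these counts, since a long gene offers a wider window. The members had a median length of 27068 bp, against 17823 bp over all genes. Within 1 kb of a gene start, where length plays no part, 10 of 10 members had a peak of some list, against 58.2% of all genes. All 6 lists were found there at 2 of 10 members (Hdac2 and Mbd3), against 2.92%. A gene with several tabulated starts was counted at any of them. Where no start was tabulated, as for Hdac1, Chd3, Mbd2 and part of all genes, either annotated end counted. The 7 members with a tabulated start were also set beside genes with a CpG-rich promoter only, where both background shares were higher. In that set 7 of 7 members had a peak of some list at the start, against 92.6% of 8393 genes, and 2 of 7 had all 6, against 5.29%. The first of these counts is near its background. With peaks kept only from a −log10 q of 10 upward, 0 members had all 6 lists in the window, against 1.30% of all genes.

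Of the 96 peaks, 71 lay nearer to the start of the NuRD gene than to that of any other curated protein-coding gene. The other 25 (26.0%) lay nearer to the start of such a neighbour. For Hdac1, Chd3 and Mbd2 either annotated end stood in for the start. Non-coding genes were left out of this assignment. All 9 Mbd2 summits, counted here as the member's own, lay within 1 kb of a long non-coding RNA gene. The same held for 4 Chd3 summits at 1 such gene and 6 others at a second. It also held for 3 Mta2 summits, those at the Mta2 start. Summits within 1 kb of the member's own start or annotated end numbered 51 (53.1%), and 43 were inside the gene. With neighbour-assigned peaks left out, the members with all 6 lists were still Hdac2, Chd4, Mbd2 and Mbd3, against 5.91% of all genes under the same rule. The 10 kb limit of the windows fell in a gap: the outermost summits inside it lay 7.09 kb from Mbd3 and 7.17 kb from Chd4, with fold enrichments of 4.11 and 5.25, and the nearest outside it lay 11.1 kb from Chd3 and 12.01 kb from Mta2, with 3.01 and 3.98.

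**Figure D3:**
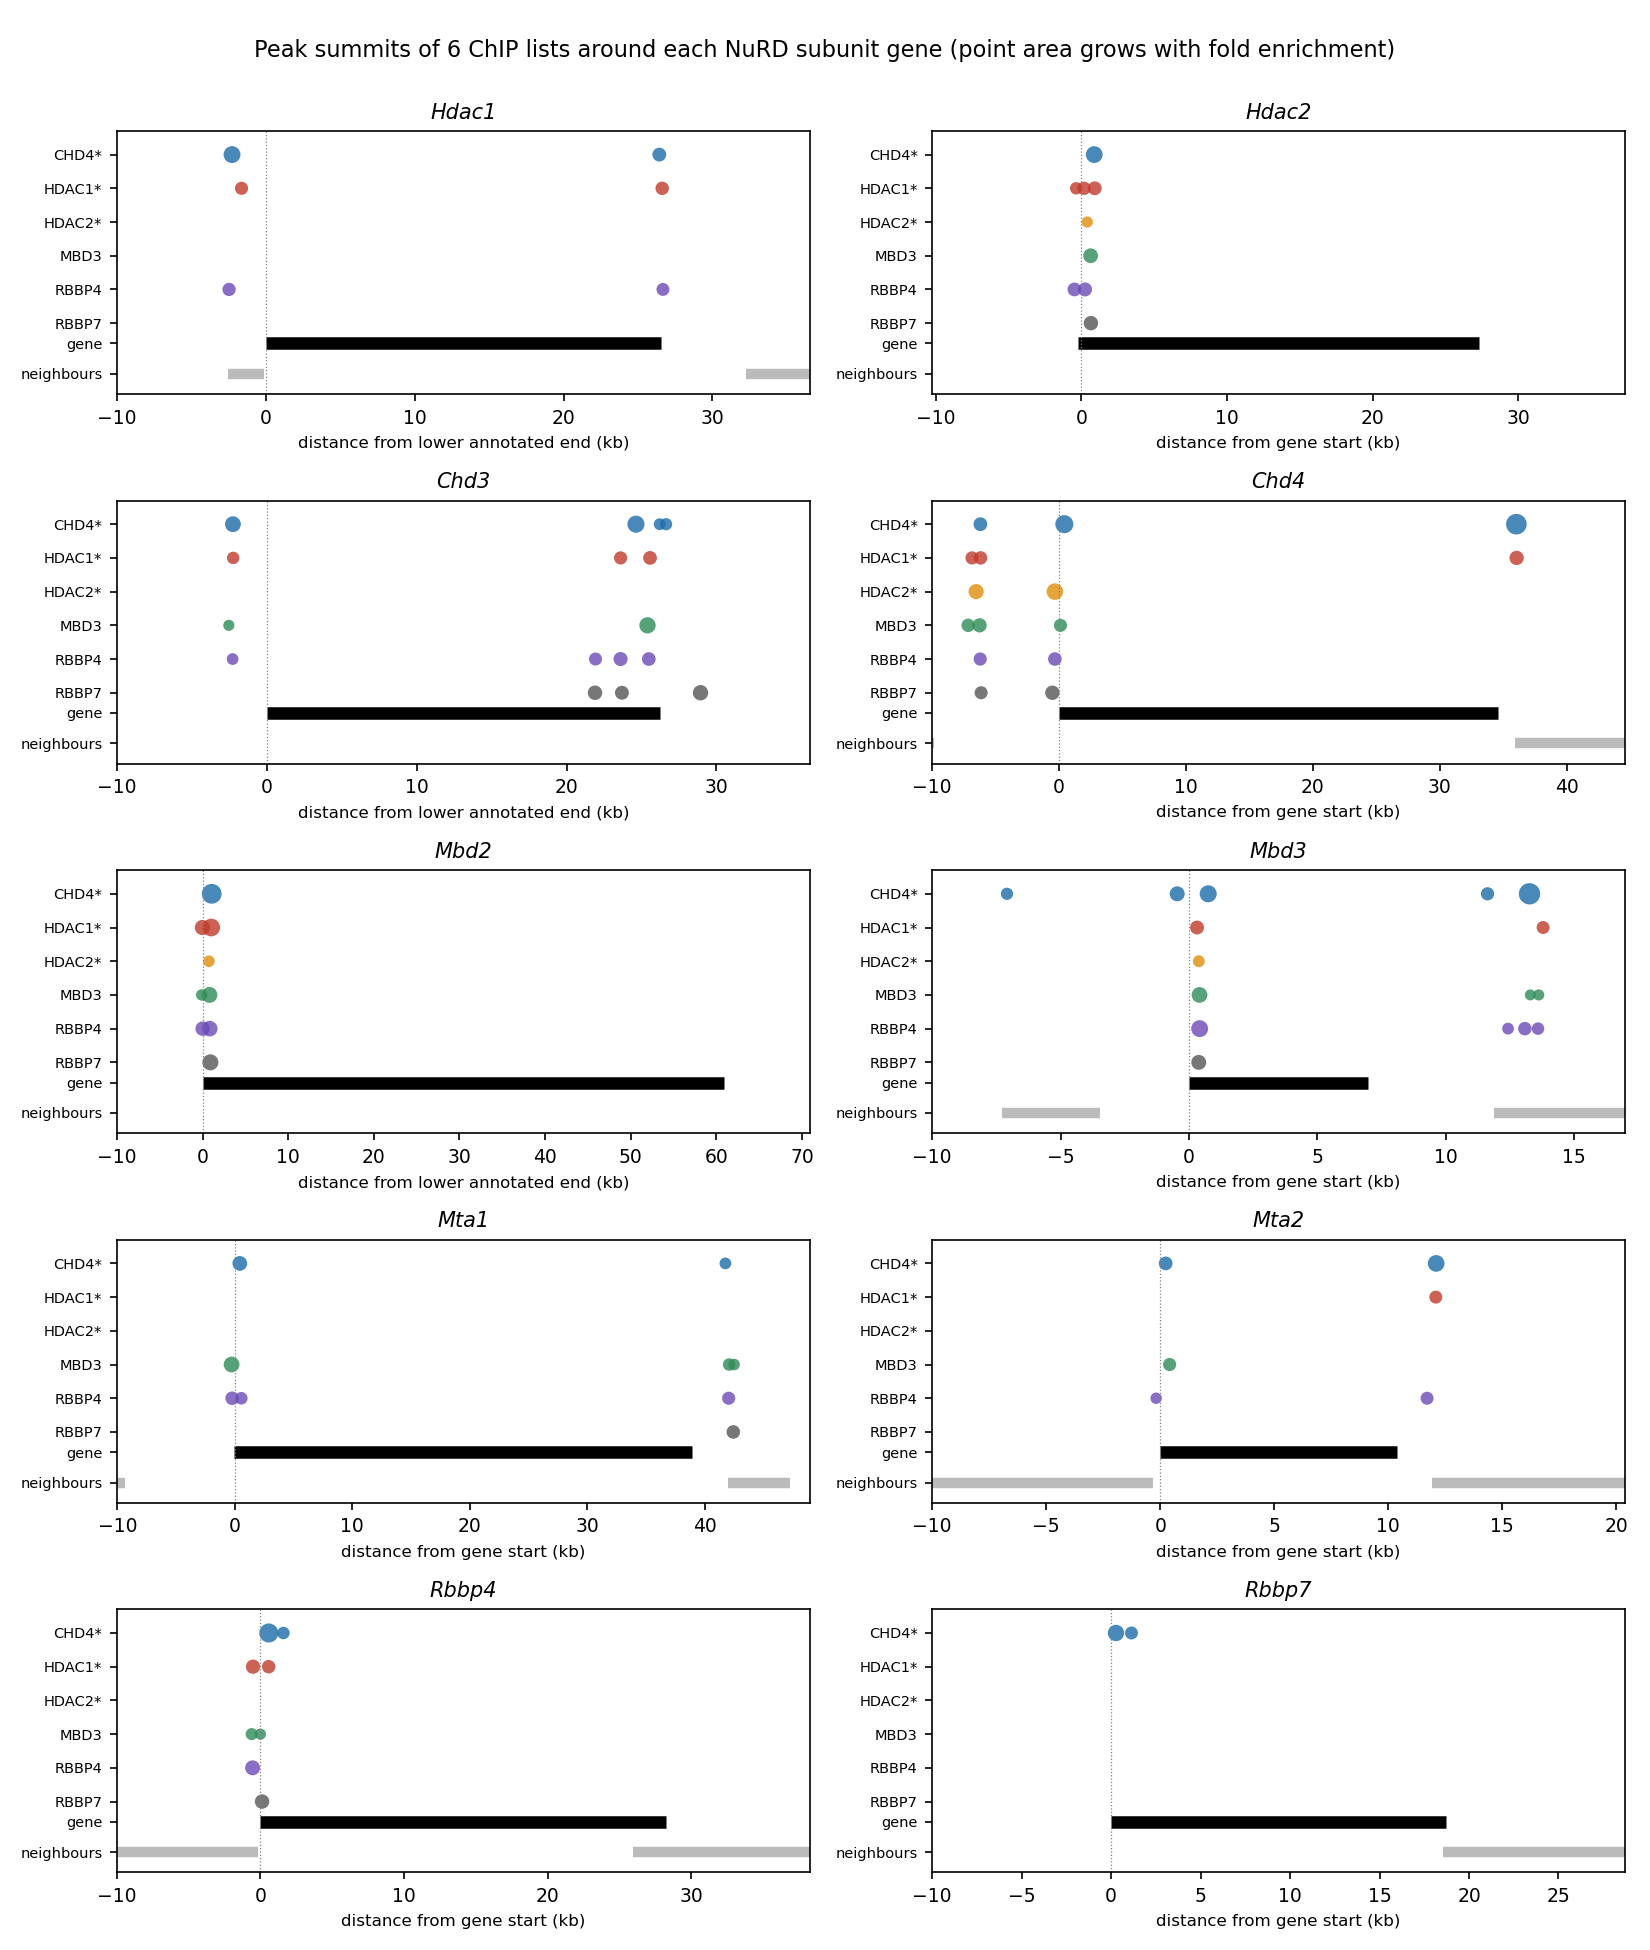
Summits of the 6 ChIP lists (rows, by sample label; an asterisk marks a list that carries another name) around each NuRD subunit gene, by distance in kb from the gene start or, for Hdac1, Chd3 and Mbd2, from the lower annotated end (x axis). Point area grows with fold enrichment over input, black bars are the gene and grey bars the neighbouring protein-coding genes. The summits gather at starts and at the neighbours' starts. Others lie inside Chd3 and beyond both its ends. For Chd4, a group lies upstream of the start and reaches 7.17 kb from the gene.

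The 2 deacetylase genes differed in the number of lists. Hdac1 (chr4:129516104-129542646) had 6 peaks of 3 lists, the CHD4-labelled, HDAC1-labelled and RBBP4 lists, arranged in 2 regions. The region at the upper annotated end of Hdac1, with summits 86 to 137 bp from it, had fold enrichments over input of 5.72 in the CHD4-labelled list, 5.27 in the HDAC1-labelled list and 4.78 in the RBBP4 list. The region beyond the opposite end lay nearest to the start of Marcksl1, a gene for a cytoskeletal MARCKS-like protein, and held the strongest CHD4-labelled summit, at 9.30. No HDAC2-labelled, MBD3 or RBBP7 peak was called in the Hdac1 window.

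Hdac2 (chr10:36974297-37001889) had 9 peaks of all 6 lists, and every summit lay nearest to its own start. The strongest summits lay 252 to 918 bp downstream of the start. Their fold enrichments were 9.15 in the CHD4-labelled list, 5.71 in the HDAC1-labelled list, 3.18 in the HDAC2-labelled list, 6.70 in the MBD3 list, 5.86 in the RBBP4 list and 6.35 in the RBBP7 list. Within its own list the HDAC2-labelled peak was among the weakest, at percentile 8.29, whereas the MBD3 peak stood at 88.0 and the CHD4-labelled peak at 87.0. The percentile is the position of a peak's fold enrichment among all peaks of the same list, and it is used here because enrichments of different antibodies are not on 1 scale.

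The 2 remodeller genes had peaks in several separate places, 5 merged regions for Chd3 and 3 for Chd4. Chd3 (chr11:69343273-69369499) had 16 peaks of 5 lists, all but the HDAC2-labelled list. Its strongest peaks were 9.53 in the CHD4-labelled list, 5.61 in the HDAC1-labelled list, 8.54 in the MBD3 list, 5.97 in the RBBP4 list and 7.44 in the RBBP7 list. The MBD3 peak, in the gene body 828 bp from its upper end, was at percentile 95.5 and was the highest-ranked MBD3 peak among the 10 genes. A separate cluster of 4 summits of 4 lists lay beyond the lower end of Chd3, at the long non-coding RNA gene Rnf227 (chr11:69340796-69342641), which is named here because its position was seen with the peaks.

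Chd4 (chr6:125095980-125130591) had 15 peaks of all 6 lists in 3 places. At its start 5 lists were found, all but the HDAC1-labelled list, in 1 region (chr6:125095065-125097997). The enrichments there were 10.9 in the CHD4-labelled list, 8.87 in the HDAC2-labelled list, 4.92 in the MBD3 list, 5.44 in the RBBP4 list and 6.30 in the RBBP7 list. The HDAC2-labelled peak, from the list that carries the name CHD4, ranked 45 of 5517, at percentile 99.2, and was the highest-ranked peak of that list at any member.

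All 6 lists met instead in a region upstream of Chd4 (chr6:125088366-125090393), in which no summit was nearest to another protein-coding gene. The strongest summit of each list there lay within a span of 394 bp. The HDAC2-labelled peak was again the highest in rank, with a fold enrichment of 7.17 and percentile 96.8, followed by the MBD3 peak with 6.19 and percentile 83.4. The RBBP7 peak, at 4.90, stood at percentile 14.9. The third place, beyond the far end of Chd4, held the CHD4-labelled and HDAC1-labelled lists and lay 143 to 163 bp from the start of Nop2, a gene for a ribosomal RNA methyltransferase. The CHD4-labelled summit there had a fold enrichment of 14.7, percentile 98.7.

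Both MBD genes had all 6 lists. Mbd2 (chr18:70568225-70629134) had 9 peaks, gathered in 1 region at its lower annotated end (chr18:70567866-70569847). Among protein-coding genes, all were nearest to Mbd2. The enrichments were 13.3 in the CHD4-labelled list, 10.4 in the HDAC1-labelled list, 3.49 in the HDAC2-labelled list, 8.004 in the MBD3 list, 7.75 in the RBBP4 list and 8.26 in the RBBP7 list. In 5 of these lists the peak was above percentile 80, and the HDAC2-labelled peak was at 18.1. The strongest summits of the 6 lists spanned 327 bp, and this was the only one of the members' shared regions in which all 6 lay within 250 bp of their median. The CHD4-labelled summit lay 1065 bp from the annotated end, just past the 1 kb limit used for gene starts.

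Mbd3 (chr10:80392539-80399531) had 16 peaks, of which 9 were nearest to a neighbour. At its own start the 6 lists met in 1 region (chr10:80398187-80399524), with enrichments of 9.50 in the CHD4-labelled list, 5.77 in the HDAC1-labelled list, 3.76 in the HDAC2-labelled list, 7.87 in the MBD3 list, 9.33 in the RBBP4 list and 6.87 in the RBBP7 list. The RBBP4 peak was at percentile 96.1 and the MBD3 peak at 93.8, with −log10 q values of 59.5 and 49.4. The HDAC2-labelled peak was at 28.7. A further group of summits lay at Mex3d, which encodes an RNA-binding protein, and there the CHD4-labelled list had its strongest peak of any member window, at 15.8.

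The 2 MTA scaffold genes had fewer lists than the MBD genes, 4 each in the window and 3 each at the start. Hdac1, with 3 in the window, and Rbbp7, with 1, had fewer still. Mta1 (chr12:113098248-113137206) had 9 peaks. At its start the enrichments were 6.72 in the CHD4-labelled list, 7.89 in the MBD3 list and 5.41 in the RBBP4 list, and the MBD3 peak, at percentile 93.9, lay 275 bp upstream. The remaining 5 summits, the RBBP7 peak among them, lay beyond the far end of Mta1 and nearest to Crip2, which encodes a cysteine-rich LIM protein. No HDAC1-labelled or HDAC2-labelled peak was called.

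Mta2 (chr19:8941920-8952300) had 6 peaks, 3 at its own start and 3 at the start of Tut1, a gene for a terminal uridylyltransferase. At the Mta2 start the enrichments were 5.598 in the CHD4-labelled list, 5.00 in the MBD3 list and 3.37 in the RBBP4 list. The strongest of the CHD4-labelled peaks in the window, 9.05, and the lone HDAC1-labelled peak, 4.82, both belonged to the Tut1 place. No HDAC2-labelled or RBBP7 peak was called.

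The 2 histone chaperone genes differed in the number of lists, 5 at Rbbp4 and 1 at Rbbp7. Rbbp4 (chr4:129307100-129335370) had 8 peaks of 5 lists around a start that faces Zbtb8os, which encodes the tRNA ligase cofactor archease and lies 161 bp away. The enrichments were 12.3 in the CHD4-labelled list, 6.16 in the HDAC1-labelled list, 3.95 in the MBD3 list, 6.91 in the RBBP4 list and 6.35 in the RBBP7 list. The strongest CHD4-labelled and RBBP7 summits were nearest to the start of Rbbp4, and the strongest HDAC1-labelled, MBD3 and RBBP4 summits lay 18 to 78 bp from the start of Zbtb8os. A weaker HDAC1-labelled summit, at 5.32, lay 570 bp into Rbbp4, and a weaker MBD3 summit, at 3.17, lay 7 bp from its start. Summits of 4 lists were thus nearest to the start of Rbbp4, and the single RBBP4 summit was nearest to that of Zbtb8os. Rbbp7 (chrX:162760372-162779090) had only 2 peaks, both of the CHD4-labelled list, with enrichments of 8.66 at 270 bp downstream of the start and 4.77 farther in. The stronger of these was at percentile 84.1 of its list, so the gene had a high-ranked peak of 1 list and no called peak of the other 5.

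**Figure D4:**
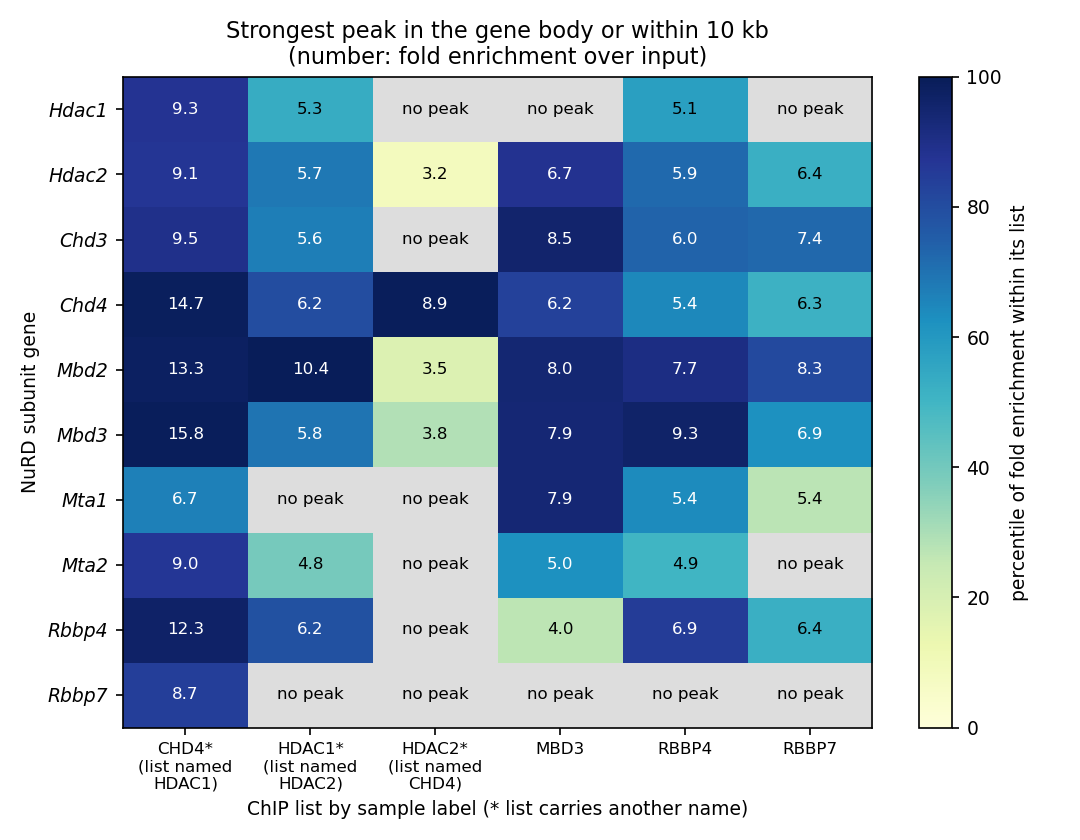
Fold enrichment over input (number in each cell) of the strongest peak in the window of each NuRD subunit gene (rows) in each ChIP list (columns, by sample label), shaded by its percentile within that list; grey cells had no peak. Hdac2, Chd4, Mbd2 and Mbd3 fill all 6 columns, the HDAC2-labelled cells of Hdac2, Mbd2 and Mbd3 are pale while that of Chd4 is dark, and Rbbp7 has a cell in 1 column.

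In 46 of the 60 pairs of a member and a list a peak was called. The strongest peak of these pairs had a median percentile of 76.0, against 64.7 over all genes with a peak, and 23 of 46 stood at percentile 75 or higher in their list, against 37.8% of the 50585 pairs of any gene and a list with a peak. Several of the members' strongest peaks lay nearest to a neighbour's start. Among them were the CHD4-labelled peaks in the Hdac1, Chd4, Mbd3 and Mta2 windows. No allowance was made here for gene length. The lists were not alike in these percentiles. Members' strongest peaks had a median percentile of 90.9 in the MBD3 list, against 59.98 for all genes with a peak in it, and of 88.4 in the CHD4-labelled list, against 73.2. The members' median was 69.0 in the HDAC1-labelled list, against 62.3 for all genes, 72.0 in the RBBP4 list, against 66.8, and 52.0 in the RBBP7 list, against 51.4. In the HDAC2-labelled list the 4 members with a peak had a median of 23.4, below the 56.4 of all genes, and the Chd4 peak was the only one of them above percentile 28.7.

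Set gene by gene against its own product, the data gave 5 subunits with a peak in the window of their own gene and 1 without, by sample label. MBD3 had 3 peaks in the Mbd3 window, 1 of them at the Mbd3 start. RBBP4 had 1 peak in the Rbbp4 window, nearest to the start of Zbtb8os. RBBP7 had none in the Rbbp7 window. These 3 counts do not depend on the disagreement of names. Over all genes, 36.1% had a peak of the MBD3 list in the window, 62.3% one of RBBP4 and 27.9% one of RBBP7.

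For the other 3 subunits the answer was read both ways. The CHD4-labelled list had 3 peaks in the Chd4 window, and the list that carries the name CHD4 had 2, so that each had a peak at the Chd4 start. The HDAC1-labelled list and the list named HDAC1 each had 2 peaks in the Hdac1 window, of which 1 each was nearest to Hdac1. The HDAC2-labelled list had 1 peak in the Hdac2 window, at percentile 8.29, and the list named HDAC2 had 3, the strongest at percentile 68.5. The strongest peak in the Chd4 window stood at percentile 98.7 by label, at the Nop2 start, and at 99.2 by list name, at the Chd4 start. In the Hdac1 window it stood at 53.2 by label, at Hdac1, and at 87.6 by list name, at Marcksl1. A peak was present under either naming for these 3 subunits. Over all genes, 57.2% had a peak of the CHD4-labelled list in the window, 39.4% one of the HDAC1-labelled list and 18.6% one of the HDAC2-labelled list.

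When overlapping peaks of all lists were merged, the series gave 38820 regions, of which 1527 (3.93%) held all 6 lists. The member windows contained 27 of these regions. All 6 lists were held by 4 (14.8%), namely those at the Hdac2 start, upstream of Chd4, at the lower end of Mbd2 and at the Mbd3 start. The 3.93% is over regions wherever they lay, so it is not a like base for regions in gene windows. In the member windows 8 regions were of 1 list, and the share of such regions in the series is not given here.

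Genes of related complexes were counted the same way. Of 5 other NuRD genes, 5 had a peak of some list, against 69.6% of all genes, and 0 had all 6, against 8.91%. The median was 5 lists, the same as for the core members: Chd5, Mta3 and Cdk2ap1 had 5, Gatad2a had 4 and Gatad2b had 2. All 6 lists were found in the windows of 8 of 19 BAF remodeller genes (Bcl11a, Bcl11b, Smarcc1, Dpf1, Arid1b and Smarcd3 leading in rank), 6 of 20 HDAC, CHD and MBD paralogues (Chd9, Chd7, Hdac3, Mbd6, Hdac7 and Hdac11), 3 of 17 Sin3 and CoREST genes (Ing2, Rcor3 and Rcor2) and 1 of 9 PRC2 genes (Jarid2). No list had a peak at Smarcd2 of the BAF list or at Phf19 of the PRC2 list. The share of members with all 6 lists, 40%, was thus close to the 42.1% of BAF genes and above the 30% of paralogues. Over all genes it was 8.91%, and no test of these differences was made. At gene starts alone, all 6 lists were found at 2 of 10 members, against 2.92% of all genes. Of the comparison lists, Sin3 and CoREST had 2 of 17 genes there and PRC2 had 1 of 9. BAF had 1 of 19, the paralogues 1 of 20 and the other NuRD genes 0 of 5.

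**Figure D5:**
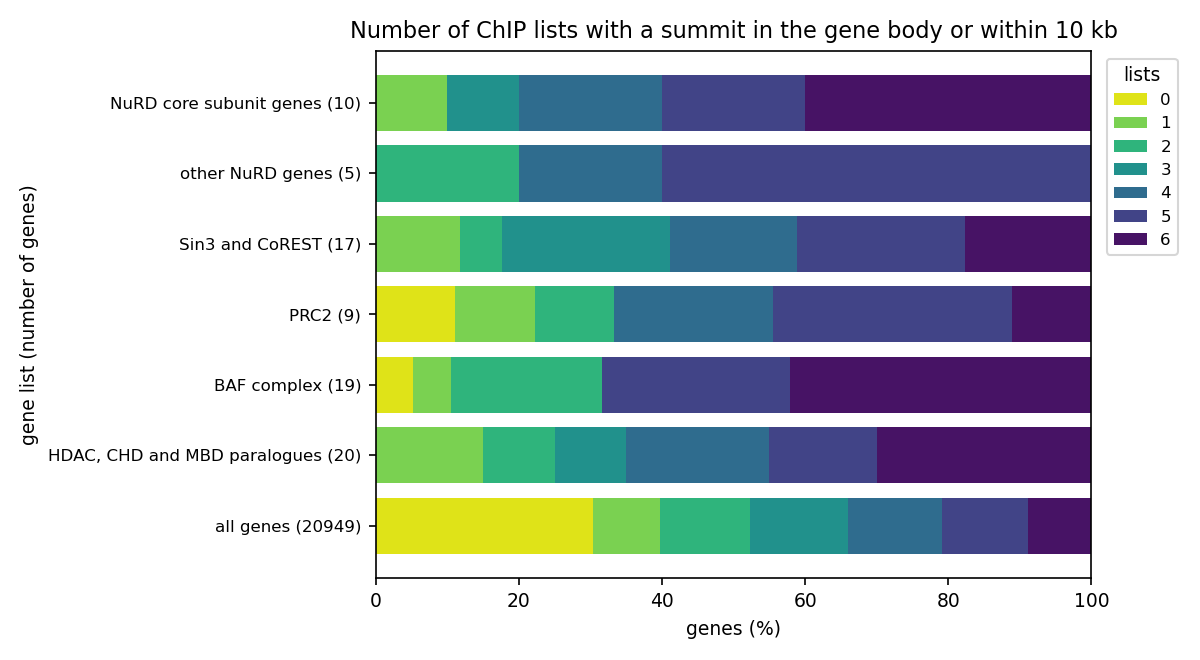
Share of genes (x axis, percent) by the number of ChIP lists, from 0 to 6, with a summit in the gene body or within 10 kb (colours), for the NuRD core subunit genes, 5 comparison lists and all genes (rows, with the number of genes). No core subunit gene is without a list, against 30.4% of all genes, and the core subunit and BAF rows end in dark segments of 40% and 42.1%.

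For a measure of likeness, a gene without a peak in a list was given percentile 0 there, which put the members' median at 0 in the HDAC2-labelled list. Outside these lists, the genes whose 6 percentiles came closest to the medians so computed were Rev3l, Dusp4 and Antxr2, with mean absolute differences of 4.42, 4.73 and 5.01 percentile points over the 6 lists. None of the 3 had a peak in the HDAC2-labelled list, and they are named for likeness of pattern only.

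The accessibility lists gave no region at any NuRD subunit gene. Regions more accessible in KO than in WT FTneg cells numbered 727 in the authors' deposited table, and 0 of 10 members had one in the window, against 1.87% of all genes. For the 53 regions more accessible in WT FTneg cells the count was 0 of 10, against 0.115%, for the 12 KO-higher FTpos regions 0 of 10, against 0.0477%, and for the 33 WT-higher FTpos regions 0 of 10, against 0.0859%. At these backgrounds a count of 0 among 10 genes is near what all genes show. The KO-higher FTneg region nearest to a member in the authors' deposited table lay 377 kb from Hdac2, and the median distance was 2637 kb over the members, against 1634 kb over all genes. As a check of the genotype labels, the interval from Dlx1 to Dlx2 held 0 KO-higher regions in either fraction, against 5 WT-higher regions in FTneg cells and 5 in FTpos cells, in the authors' deposited table. The lists hold only regions that differed, so whether the members' starts were open in both genotypes was not measured by them.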

How the data were processed

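ChIP peaks came as 1 deposited list per library, called against input. The value used is the fold enrichment at the summit, a ratio computed by the authors' caller, and each deposited peak also has a −log10 p and a −log10 q. The accessibility data came as 4 deposited lists with the embryos combined. The score of each region in them is an area, and the lists hold areas of at least 500, per the labels. The build was mm10 and the tools named were Genrich, deepTools, MACS2 2.2.7.1, SAMtools 1.10 and BWA, per the submitters' processing notes. Settings are not given in the sources used here.

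Genes were protein-coding RefSeq genes of GRCm38.p6 with a curated transcript on chromosomes 1 to 19 and X. The table gives no strand or exons, so exonic and intronic places were not told apart. Starts came from the RefSeq promoter table for 16782 genes, members included where listed, and otherwise both annotated ends were used. A summit was assigned to the nearest such start. Peaks were merged at an overlap of at least 1 bp. All results are counts and percentiles computed with pandas 2.3.3, and the window counting was tested on simulated data. The members and gene lists were chosen with earlier results of these data known. All 10 members are named; of the comparison lists, up to 6 genes with every list and those with none are named, in order of summed percentile, together with neighbours whose start is nearest to a strongest summit. Outside this rule, the 5 other NuRD genes and Rnf227 are named, chosen after their values were seen.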

Additional observations from a re-analysis of the deposited data

How the results depend on the processing

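Depth is unknown, there is 1 list per subunit, and peaks under each list's threshold are not seen, so absence here means not called. The count of members with a peak of any list stayed at 9 or 10 in 16 alternatives, against 52.4% to 80.7% of all genes. The count with a KO-higher FTneg region was 0 in 4 alternatives, against 0.411% to 3.40%. The count of members with all 6 lists in the window was 4, against 8.91% of all genes. It was 0, against 1.30%, with peaks of −log10 q of at least 10. With every list cut to its 5517 strongest peaks it was 2 (Mbd2 and Mbd3), against 2.56%. It was 7, against 20.3%, when only the 3 lists named as labelled were required. In 13 others, which include leaving out each list in turn, it stayed between 3 and 6. Over all genes the share in those 13 ran from 4.57% with the gene body only to 20.6% within 50 kb. At gene starts the count of 2, against 2.92% of all genes, was 1 (Mbd3) within 500 bp, against 1.84%. It was 0 with −log10 q of at least 10, against 0.253%, and 1 (Mbd3) with lists of equal length, against 0.582%. The 4 shared regions became 1 (Mbd2) with summits within 250 bp of their median. They became 0 with −log10 q of at least 10, against 0.904% of all regions. With lists of equal length they were 2 (Mbd2 and Mbd3), against 2.05%. The median of 5 lists per member was 2.5 with the gene body only, 3.5 with −log10 q of at least 10 and 3.5 with lists of equal length. Over all genes the median was 1 in each of these settings, against 2 in the main one. In the other settings the members' median stayed between 4.5 and 5.5. The stricter settings keep fewer peaks by construction. The gene body only, the 500 bp start and the 250 bp rule could likewise only lower a value. Requiring only 3 of the lists could only raise one. For the other settings the cause of a change was not tested. The CpG-rich background and the set of all protein-coding genes were chosen after seeing the data. No paired analysis was possible because the result comes from no test and each ChIP group has 1 sample.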
